A study of Homo sapiens with 4 samples.

Results

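Golgi glycosyltransferase genes were followed in RNA-seq libraries of MDA-MB-231 cells, an established human line of triple-negative breast cancer. The members were the 79 protein-coding genes, of 39259 genes in the table, whose symbol belongs to one of 10 families (GALNT, B3GNT, B3GALT, B4GALT, ST3GAL, ST6GAL, ST6GALNAC, ST8SIA, FUT and MGAT), together with UGCG and UGT8. They were chosen by name and not by their values, although earlier results of these data were known when the set was drawn up. Total RNA from 2 libraries labelled KO, cells in which mdig (also called MINA53, gene RIOX2) was knocked out, was compared with that from 2 libraries labelled WT. All cells were of the same line and were grown without any labelled treatment, in DMEM/F-12 medium with serum. How the knockout was made, and whether its libraries came from 1 clone, from several or from separate cultures, is not stated in the sources used here. Each p-value therefore reflects the spread among these 4 libraries alone, and that spread may be technical.

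Glycosyltransferases of the Golgi build the sugar chains of secreted and membrane proteins and of glycolipids, each adding 1 kind of sugar in 1 kind of linkage. GALNT enzymes start mucin-type O-glycans by placing GalNAc on serine or threonine, MGAT enzymes set the branches of N-glycans, and B4GALT, B3GALT and B3GNT enzymes lengthen chains with galactose and GlcNAc. Sialyltransferases (ST3GAL, ST6GAL, ST6GALNAC and ST8SIA) and fucosyltransferases (FUT) cap or decorate the chains, while UGCG and UGT8 each attach the first sugar to ceramide. The set is named after the Golgi for its families as a whole. Where each enzyme, UGT8 included, resides in the cell was not examined. In breast carcinoma, shortened O-glycans, branched N-glycans and altered sialylation have been studied as features of the cell surface.

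Levels are in FPKM, which scales the fragments of a gene to its length in kilobases and to 1000000 assigned fragments, and rest on 48768932 and 52163811 assigned fragments in the libraries labelled KO and on 45173267 and 22503981 in the WT libraries. In WT replicate 2, the shallowest library, 3 fragments on a gene of 1 kb stand for 0.133 FPKM. RIOX2 measured 9.23 and 9.82 FPKM in the libraries labelled KO, against 8.60 and 8.24 FPKM in WT. Its RNA was thus not lower, and the RNA level leaves the label unchecked, so every direction below is between libraries labelled KO and WT. Of the markers of the line, VIM, CD44, AXL, CAV1 and EGFR lay between 47.2 and 2394 FPKM. ESR1 and PGR were at or near 0, CDH1 was at 0.128 to 0.625 FPKM, EPCAM at 1.87 to 2.65 FPKM and ERBB2 at 12.7 to 14.3 FPKM. Some of these markers moved with the groups. CAV1 (log2 change 0.59), EPCAM (0.28) and CD44 (0.18) were higher and VIM (-0.22) was lower in the libraries labelled KO by the test described below. With no filter, CAV1 and VIM kept their calls, while EPCAM (limma adjusted p = 0.0543) and CD44 (0.138) lost theirs. The other tested genes near VIM on its chromosome had a median change of -0.32, below its own. Over the alternatives given below, the change of VIM ran from -0.29 to 0.099, so its sign was not kept throughout. CDH1, tested without a filter, was 4.01-fold higher (limma adjusted p = 0.0124). The part of these shifts in the members' changes was not tested. The 10 markers of leukocytes, endothelium and fibroblasts summed to 5.39 and 4.85 FPKM in the libraries labelled KO and to 4.25 and 4.57 FPKM in WT. They moved both ways: COL1A1 (log2 change 0.37) and PECAM1 (0.26, above 1 FPKM in the libraries labelled KO alone) were higher in the libraries labelled KO. CD14 averaged 0.703 FPKM in the libraries labelled KO and 1.23 FPKM in WT, and was lower when tested without a filter (limma adjusted p = 0.0414). VWF was near 0 in all libraries. Their part in the results was not tested.

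Of the 79 members, 42 averaged 1 FPKM or more in the 4 libraries and were tested, and 13 of them averaged 10 FPKM or more. The other 37 members were below that filter, 6 of them listed at 0 in every library (MGAT4D, ST6GAL2, ST8SIA2, ST8SIA3, FUT9 and B3GALT2). Among the 42 tested members, 13 rose and 7 fell in the libraries labelled KO, and 22 did not pass. The test was that of limma, made on log2(FPKM + 1) with p-values adjusted over 11716 genes by Benjamini-Hochberg and a threshold of 0.05. Together the 20 calls were 47.6% of the tested members, close to the 49.9% of all tested genes that passed. By direction, 31.0% of the members were higher and 16.7% were lower, beside 21.6% and 28.4% of all tested genes. Their median log2 change was 0.05, against -0.04 over all tested genes. Without KO replicate 1, the lower members numbered 4, without KO replicate 2 they numbered 3 and without WT replicate 2 they numbered 12. Of the called members, 65% were higher with FPKM as deposited, 75% with median-of-ratios scaling and 70.8% with voom, but 50% with no filter and 53.8% without WT replicate 2. Over all genes, rises made up 43.2% of the calls from FPKM as deposited, 51.9% with median-of-ratios scaling and 51.6% with voom. In bulk RNA, fewer cells with a transcript and less of it in each cell cannot be told apart.

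**Figure D1:**
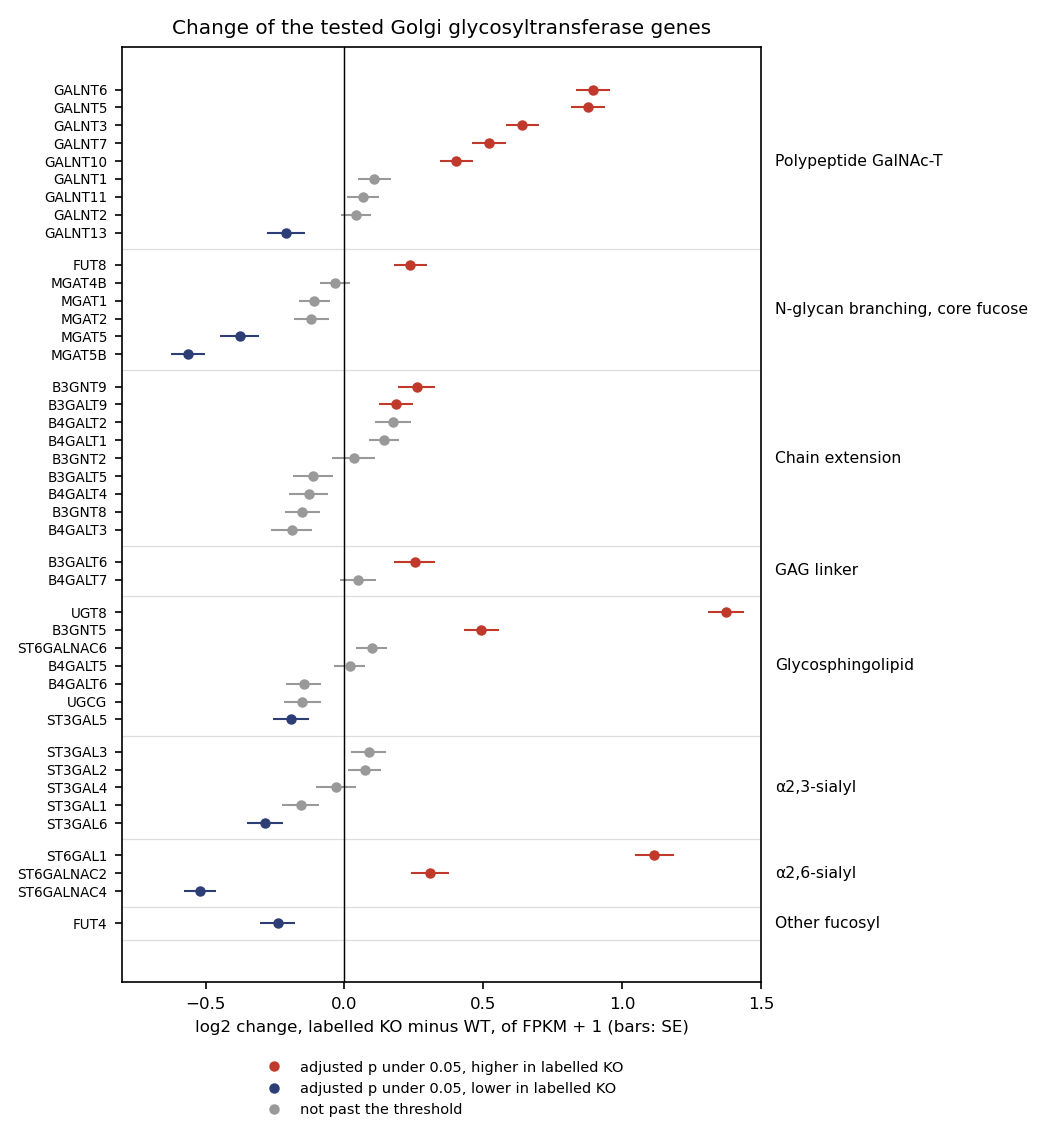
Log2 change of FPKM + 1, libraries labelled KO minus WT, for the 42 tested members, grouped by the chains they act on; points are the fitted changes, bars their standard errors (n = 2 libraries per group) and colours the call. The rises reach 1.38 (UGT8) and 1.11 (ST6GAL1), and the falls end at -0.56 (MGAT5B).

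UGT8, which makes galactosylceramide, and ST6GAL1, which adds alpha2,6-linked sialic acid to the ends of N-glycans, had the largest log2 changes of FPKM + 1 among the 42 tested members, the 2 that reached 1 on that scale. Low members can differ by larger ratios, as given below for MGAT4A. Of the members past the threshold, 8 changed by 0.5 or more in either direction. They were UGT8, ST6GAL1, GALNT6, GALNT5, GALNT3 and GALNT7 among the rises, and MGAT5B and ST6GALNAC4 among the falls. For 6 of them, RefSeq sequence of GRCh38.p14 was at hand for the 150 bases just before an annotated start, and these are shown because they are the promoters of the genes that changed most (GALNT5 and GALNT6 were not in the table). Capitals mark GC boxes (GGGCGG, either strand) and, in UGT8, an E-box (CACGTG). Overlapping matches run together.
UGT8 promoter (chr4:114598252-114598401, plus strand): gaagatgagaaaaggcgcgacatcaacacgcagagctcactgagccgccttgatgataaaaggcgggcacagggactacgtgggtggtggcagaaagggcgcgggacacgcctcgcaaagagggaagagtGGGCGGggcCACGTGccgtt
ST6GAL1 promoter (chr3:186930376-186930525, plus strand): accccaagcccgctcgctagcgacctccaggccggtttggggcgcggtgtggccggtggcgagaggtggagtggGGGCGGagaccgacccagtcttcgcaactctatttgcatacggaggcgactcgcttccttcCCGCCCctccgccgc
GALNT3 promoter (chr2:165794248-165794397, minus strand): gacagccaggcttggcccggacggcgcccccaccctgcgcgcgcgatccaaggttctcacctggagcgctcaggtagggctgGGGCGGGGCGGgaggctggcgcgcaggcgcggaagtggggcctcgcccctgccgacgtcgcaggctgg
GALNT7 promoter (chr4:173168661-173168810, plus strand): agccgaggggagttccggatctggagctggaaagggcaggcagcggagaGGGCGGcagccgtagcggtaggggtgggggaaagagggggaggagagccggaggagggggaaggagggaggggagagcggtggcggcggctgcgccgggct
MGAT5B promoter (chr17:76872497-76872646, plus strand): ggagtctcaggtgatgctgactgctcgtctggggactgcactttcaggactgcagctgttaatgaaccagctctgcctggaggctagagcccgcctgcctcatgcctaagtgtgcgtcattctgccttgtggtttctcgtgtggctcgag
ST6GALNAC4 promoter (chr9:127917042-127917191, minus strand): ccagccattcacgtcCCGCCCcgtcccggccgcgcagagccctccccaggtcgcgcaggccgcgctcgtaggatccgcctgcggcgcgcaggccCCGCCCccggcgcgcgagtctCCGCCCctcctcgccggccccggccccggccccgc
GC boxes lay in 5 of these 6 windows, and none was found in that of MGAT5B. The starts of GALNT3, MGAT5B and ST6GALNAC4 used here lie inside the span of the gene as deposited. For UGT8 and ST6GALNAC4, the first bases from the start used were not found in the GENCODE transcripts of the gene, so these starts remain unchecked. Among the 59 members with such a sequence, 62.7% held a GC box, as did 50.2% of 15537 protein-coding genes. An E-box occurred in 10.2% of the members and in 5.75% of the protein-coding genes. Both strands were searched for 4 other motifs, and the 6 windows held none of them. The TATA motif (TATAAA) was found in 1.69% of the members and in 6.38% of the protein-coding genes. The motif CCAAT, bound by NF-Y, was found in 18.6% of the members and in 26.8% of the protein-coding genes. For AP-1 (letters TGANTCA) the shares were 1.69% of the members and 2.97% of the protein-coding genes, and for the ETS core (letters CCGGAAG) 1.69% and 9.83%. The GC content of the 6 windows ran from 57.3% in MGAT5B to 83.3% in ST6GALNAC4, beside a median of 69.3% over the members and 64.7% over protein-coding genes. Such matches describe the letters, and the table has 1 value per gene, so it does not show which start was used.

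Among the polypeptide GalNAc-transferases, 5 of the 9 tested members rose in the libraries labelled KO and 1 fell, with a median log2 change of 0.40. Over all tested genes, 21.6% were higher and 28.4% lower, which is the background for this count and for those of the other classes. GALNT6 (chromosome 12, 51351252 to 51391955), an enzyme studied in breast cancer for its action on fibronectin and MUC1, measured 5.17 and 5.28 FPKM in the libraries labelled KO, against 2.44 and 2.26 FPKM in WT. Both libraries labelled KO were above both WT libraries, a 2.22-fold difference of the means (log2 change 0.89, SE 0.061, limma adjusted p = 2.87e-05). GALNT5 (chromosome 2, 157257656 to 157318491) gave 6.91 and 7.18 FPKM against 3.51 and 3.26 FPKM in WT, from 774 to 3956 fragments per library. This was a 2.08-fold rise, with a log2 change of 0.88 (SE 0.061, limma adjusted p = 3.18e-05). GALNT3 (chromosome 2, 165747588 to 165796352), which glycosylates the phosphate-regulating hormone FGF23, measured 8.13 and 8.46 FPKM in the libraries labelled KO and 5.06 and 4.87 FPKM in WT. It rose by 0.64 (SE 0.058, limma adjusted p = 0.000112). The other tested genes within the same 20 Mb bin of the chromosome had a median change of -0.06 for GALNT3 and of 0.03 for GALNT5.

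GALNT7 and GALNT10 prefer peptides that already carry GalNAc. GALNT10 (chromosome 5, 154190733 to 154420984), the most abundant member of all, had 49.9 and 51.2 FPKM in the libraries labelled KO and 39.6 and 36.4 FPKM in WT. It rose by 0.40 (SE 0.059, limma adjusted p = 0.000903), and no library of one group reached the range of the other. GALNT7 (chromosome 4, 173168811 to 173323967) measured 11.6 and 12.3 FPKM in the libraries labelled KO, against 8.26 and 7.79 FPKM in WT, a change of 0.52 (SE 0.061, limma adjusted p = 0.000338). Around it, the bin median of the other genes was 0.57, above its own change, and after subtraction of that median its change was -0.05 (adjusted p = 0.541; range over 14 alternatives 6.09e-15 to 0.541). GALNT13, an enzyme first described in neural tissue, was the tested member of the class that fell: 1.36 and 1.42 FPKM in the libraries labelled KO, against 1.89 and 1.66 FPKM in WT (log2 change -0.21, limma adjusted p = 0.0341). Its call was lost without WT replicate 1 (adjusted p = 0.0813), without KO replicate 1 (0.195), without KO replicate 2 (0.135), with no filter (0.0962), with quantile normalization (0.0534) and with median-of-ratios scaling (0.0584), and the lowest value over the alternatives was 0.00128. It lies on the same arm of chromosome 2 as GALNT3 and GALNT5, which moved the other way. The broadly acting GALNT1 and GALNT2 and the Notch-modifying GALNT11 did not pass, with changes of 0.04 to 0.11. GALNT2 in particular had 33.7 and 32.8 FPKM in the libraries labelled KO and 33.2 and 31.4 FPKM in WT.

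The family as a whole summed to 137 and 140.3 FPKM in the libraries labelled KO, against 115 and 107 FPKM in WT. With 49.9% of all tested genes called, groups that lie apart are common in these data. The sum includes GALNT7, whose change did not exceed its bin median of 0.57. The makeup of the family differed too. GALNT2 gave 24.5% and 23.4% of the summed FPKM in the libraries labelled KO and 28.9% and 29.2% in WT, while GALNT10 gave 36.3% and 36.5% against 34.4% and 33.9%. GALNT3, GALNT5 and GALNT6 gave 5.97%, 5.07% and 3.76% on average in the libraries labelled KO, against 4.46%, 3.04% and 2.11% in WT. The 9 untested members of the family were below 1 FPKM, and 2 of them passed the threshold when no filter was applied, both as falls. Without the filter 19% of 25798 genes passed, 8.68% as rises and 10.3% as falls, and 10 of 73 members were higher and 10 lower. Of these 20, 6 were members below the filter, 1 of them higher. GALNT18 had 0.420 and 0.384 FPKM in the libraries labelled KO, against 0.941 and 0.794 FPKM in WT (limma with no filter, adjusted p = 0.0218), and it shares 293 exonic bases with CSNK2A3 on the same strand. GALNT16 had 13 and 14 fragments in the libraries labelled KO and 47 and 22 in WT (adjusted p = 0.0347 with no filter). Reads of GALNT4 are uncertain, since 5029 of its exonic bases are shared with the readthrough gene POC1B-GALNT4.

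**Figure D2:**
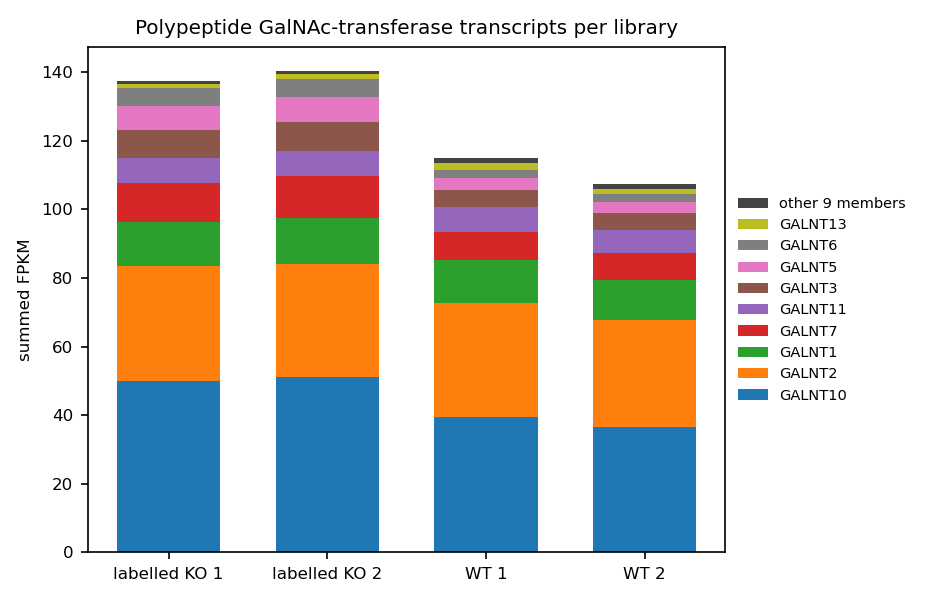
FPKM of the polypeptide GalNAc-transferase genes, stacked in each library; each colour is 1 gene, and the dark segment is the sum of the 9 members with a mean below 1 FPKM. The columns reach 137 and 140.3 FPKM in the libraries labelled KO and 115 and 107 FPKM in WT, and the segments of GALNT3, GALNT5, GALNT6 and GALNT10 are taller in the libraries labelled KO.

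Of the 6 tested genes of N-glycan branching and core fucose, 1 rose and 2 fell, with a median of -0.11. MGAT5, which adds the beta1,6-linked GlcNAc branch studied in tumour spread, fell to 4.96 and 5.06 FPKM in the libraries labelled KO, against 7.27 and 6.35 FPKM in WT (chromosome 2, 134119922 to 134454621). Its log2 change was -0.38 (SE 0.070, limma adjusted p = 0.003), and it passed under all 14 alternatives. MGAT5B, a relative that branches O-mannose glycans in brain, had 1.56 and 1.52 FPKM in the libraries labelled KO and 2.73 and 2.78 FPKM in WT. WT was 1.79-fold higher (log2 change -0.56, SE 0.061, limma adjusted p = 0.000234). FUT8, which adds the core fucose of N-glycans, measured 12.7 and 13.2 FPKM in the libraries labelled KO and 11.2 and 10.5 FPKM in WT, and rose by 0.24 (SE 0.059, limma adjusted p = 0.0114). Its call was lost without KO replicate 1 and without KO replicate 2, with no filter and after the bin median was subtracted (adjusted p over 14 alternatives 0.000131 to 0.111).

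The FPKM ratio of MGAT5 to FUT8 was 0.391 and 0.384 in the libraries labelled KO and 0.650 and 0.607 in WT. The other tested members of the class did not pass. MGAT1, which opens the way to hybrid and complex chains, changed by -0.11, MGAT2 by -0.12 and MGAT4B by -0.03. MGAT4B was the most abundant of the class, with 38.6 and 38.4 FPKM in the libraries labelled KO and 38.3 and 40.5 FPKM in WT, which overlap. MGAT4A, its close relative, was below the filter with 0.190 and 0.229 FPKM in the libraries labelled KO, against 0.722 and 0.563 FPKM in WT. WT was 3.06-fold higher, from 79 to 278 fragments per library (limma with no filter, adjusted p = 0.0226). MGAT3, which adds the bisecting GlcNAc, MGAT4C and MGAT4D lay between 0 and 0.0104 FPKM.

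Of the 7 tested glycosphingolipid genes, 2 rose and 1 fell, with a median of 0.02. UGT8 (chromosome 4, 114598402 to 114687914) measured 2.84 and 2.87 FPKM in the libraries labelled KO, against 0.523 and 0.448 FPKM in WT. The counts behind these values were 1304 and 1411 fragments in the libraries labelled KO and 223 and 95 in WT. The means differed 5.87-fold, and the log2 change of 1.38 (SE 0.065, limma adjusted p = 5.06e-06) understates this because 1 was added to low values. UGT8 passed the filter through its level in the libraries labelled KO, its WT mean being below 1 FPKM. Its bin on chromosome 4 had a median of 0.53 over the other genes, and after its subtraction the change of UGT8 was 0.85. UGT8 kept its call after that subtraction and with no filter (limma adjusted p = 0.00393). The other alternatives that tested UGT8 used the same filtered genes, so they are no check on the filter. UGCG, which makes glucosylceramide from the same substrate, had 27.3 and 29.1 FPKM in the libraries labelled KO, against 29.7 and 33.2 FPKM in WT, and did not pass (-0.15, limma adjusted p = 0.0934). The FPKM ratio of UGT8 to UGCG was 0.104 and 0.0987 in the libraries labelled KO and 0.0176 and 0.0135 in WT.

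**Figure D3:**
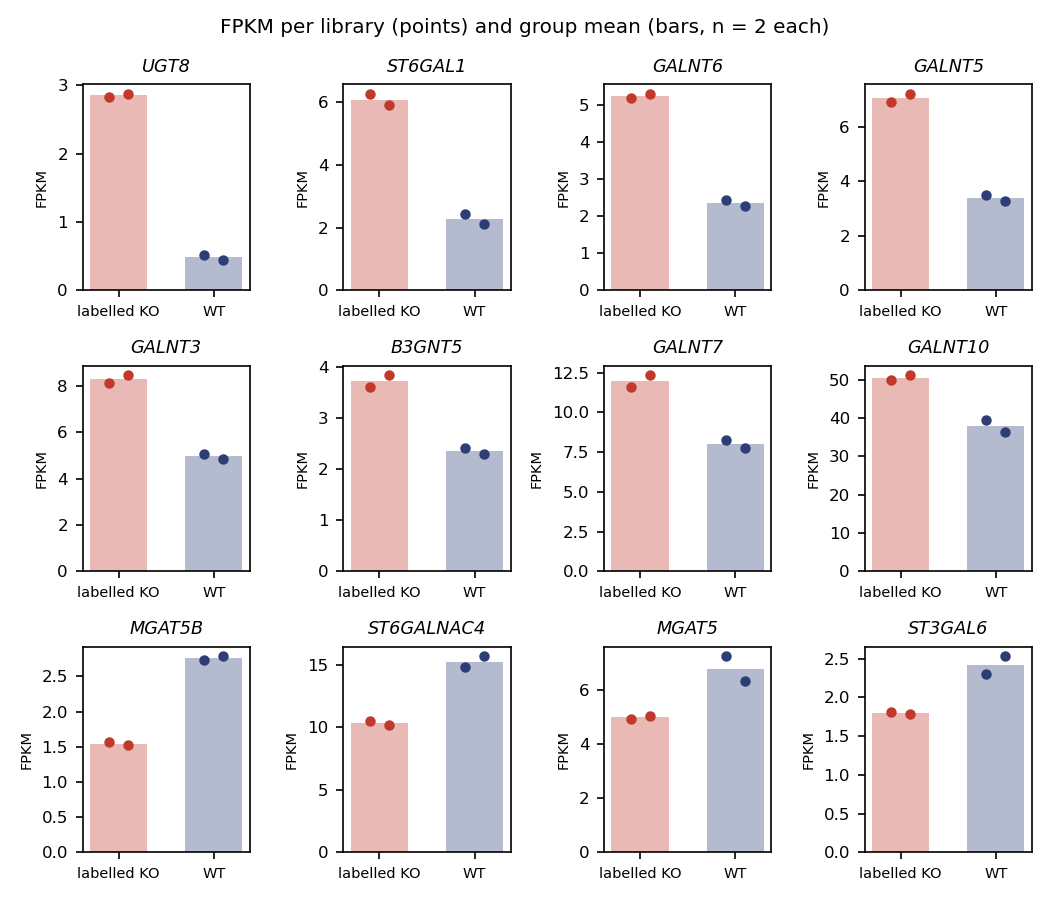
FPKM in each library (points) and group means (bars, n = 2 libraries each) of 12 members past the threshold, each panel with its own axis from 0. The panels were chosen among called members, so separate groups are part of the choice (49.9% of all tested genes were called). In the libraries labelled KO, the first panel, UGT8, shows 2.84 and 2.87 FPKM and the last, ST3GAL6, 1.82 and 1.78 FPKM.

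Further along the glycolipid path, B3GNT5, which starts the lacto and neolacto series, measured 3.62 and 3.84 FPKM in the libraries labelled KO and 2.41 and 2.31 FPKM in WT. It rose by 0.49 (SE 0.062, limma adjusted p = 0.000455) on chromosome 3, where the bin median was -0.15. ST3GAL5, the GM3 synthase at the entry to gangliosides, had 0.902 and 0.973 FPKM in the libraries labelled KO, against 1.20 and 1.23 FPKM in WT, a fall of 0.19 (limma adjusted p = 0.0388). It reached 1 FPKM on average in WT alone and so passed the filter through the group where it is high. With no filter the call was lost (adjusted p = 0.0752). It kept its call under 6 of 13 alternatives, and without KO replicate 1 or KO replicate 2 the call was lost (adjusted p over the alternatives 0.0110 to 0.524). B4GALT5, a lactosylceramide synthase and the most abundant member of the class, had 37.2 and 37.9 FPKM in the libraries labelled KO and 38.3 and 35.8 FPKM in WT, with overlapping groups. B3GALT4, which makes GM1, was below the filter and measured 1.23 and 1.18 FPKM in the libraries labelled KO, against 0.637 and 0.522 FPKM in WT (2.08-fold, limma with no filter, adjusted p = 0.0156). It shares 619 exonic bases with WDR46 on the opposite strand, a gene at 27.2 FPKM, and the strand setting of the counting is not given. ST6GALNAC5, a ganglioside sialyltransferase studied in brain metastasis of breast cancer, had 0.327 and 0.486 FPKM in the libraries labelled KO, against 0.828 and 0.861 FPKM in WT (limma with no filter, adjusted p = 0.0332).

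Of the 3 tested ST6GAL and ST6GALNAC members that act on glycoproteins, 2 rose and 1 fell. ST6GAL1 (chromosome 3, 186930526 to 187078553) had 6.24 and 5.88 FPKM in the libraries labelled KO and 2.42 and 2.10 FPKM in WT, from 226 to 1466 fragments per library. Both libraries labelled KO lay far above WT, and the difference was 2.68-fold (log2 change 1.11, SE 0.070, limma adjusted p = 1.95e-05). The other genes of its bin had a median change of -0.15, and it passed under all 13 alternatives that tested it. ST6GALNAC4, which adds a second sialic acid to core O-glycans, fell to 10.5 and 10.2 FPKM in the libraries labelled KO, against 14.9 and 15.7 FPKM in WT (-0.52, SE 0.058, limma adjusted p = 0.000259). Its neighbour ST6GALNAC6, 1.12 kb away on chromosome 9, had 13.9 and 14.5 FPKM in the libraries labelled KO and 13.4 and 13.0 FPKM in WT, and did not pass (0.10, adjusted p = 0.177). ST6GALNAC2, which acts on mucin-type O-glycans, had 1.95 and 2.18 FPKM in the libraries labelled KO, against 1.43 and 1.52 FPKM in WT. It rose by 0.31 (limma adjusted p = 0.00646), and without KO replicate 2 it no longer passed (adjusted p over 13 alternatives 4.12e-05 to 0.0886). It lies 283 kb from MGAT5B on chromosome 17, which fell.

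The summed FPKM of the 6 members of this class was 18.7 and 18.3 in the libraries labelled KO and 18.9 and 19.4 in WT, so the opposite changes of ST6GAL1 and ST6GALNAC4 nearly offset each other. ST6GALNAC4 made up 56.1% and 55.7% of that sum in the libraries labelled KO, against 78.8% and 81.0% in WT. ST6GAL2, ST6GALNAC1 and ST6GALNAC3 were at 0 to 0.102 FPKM.

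Of the 5 ST3GAL members other than ST3GAL5, 1 fell and 4 did not pass. ST3GAL6, which sialylates lactosamine ends and contributes to selectin ligands, had 1.82 and 1.78 FPKM in the libraries labelled KO, against 2.30 and 2.53 FPKM in WT (-0.29, SE 0.065, limma adjusted p = 0.00728). The call was lost without KO replicate 1 or KO replicate 2 (adjusted p over 13 alternatives 2.71e-05 to 0.0662). ST3GAL4, the most abundant of them, had 9.47 and 9.37 FPKM in the libraries labelled KO, within the 8.97 and 10.4 FPKM of WT. The FPKM ratio of ST6GAL1 to ST3GAL4 was 0.658 and 0.628 in the libraries labelled KO and 0.270 and 0.203 in WT. Polysialic acid genes were low: ST8SIA4, the highest of its class, had 0.724 and 0.796 FPKM in the libraries labelled KO and 0.668 and 0.539 FPKM in WT, with no call when tested without a filter (adjusted p = 0.241).

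Of 9 tested genes that lengthen chains, 2 rose and 0 fell, and changes ran from -0.19 to 0.26. B3GNT9 had 5.67 and 5.23 FPKM in the libraries labelled KO and 4.22 and 4.56 FPKM in WT (0.26, SE 0.066, limma adjusted p = 0.012). Its call was lost without KO replicate 1 and with no filter (adjusted p over 13 alternatives 5.59e-05 to 0.134), and 441 of its exonic bases are shared with PHAF1 on the opposite strand, which fell by 0.23. B3GALT9 had 2.23 and 2.14 FPKM in the libraries labelled KO and 1.84 and 1.76 FPKM in WT (0.19, limma adjusted p = 0.0362). It passed under 9 of 13 alternatives, not without KO replicate 1 or KO replicate 2 (adjusted p over the alternatives 0.00880 to 0.240). B4GALT1, the main galactosyltransferase of N-glycan antennae, had 32.9 and 33.7 FPKM in the libraries labelled KO, against 30.7 and 29.5 FPKM in WT. It did not pass (0.14, limma adjusted p = 0.0548), but did under 6 of 14 alternatives, without WT replicate 1 among them (adjusted p over the alternatives 0.00946 to 0.313). B3GNT7, which extends keratan sulfate, was below the filter at 0.372 and 0.316 FPKM in the libraries labelled KO, against 0.572 and 0.623 FPKM in WT (limma with no filter, adjusted p = 0.0455).

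In the linker of glycosaminoglycans, B3GALT6, which adds the second galactose, had 9.15 and 9.001 FPKM in the libraries labelled KO and 6.90 and 8.06 FPKM in WT. It rose by 0.25 (SE 0.074, limma adjusted p = 0.0225). Its bin at the end of chromosome 1 had a median change of 0.21, after whose subtraction its change was 0.04 with no call. The call was also lost with no filter (adjusted p = 0.107) and without KO replicate 1 or KO replicate 2, and without WT replicate 1 the change was 0.15 (adjusted p over 14 alternatives 1.99e-06 to 0.669). B4GALT7, which adds the first galactose, did not pass (0.05).

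Fucosyltransferases other than FUT8 were scarce. FUT4, which makes Lewis x structures, was the 1 tested member of 8, with 1.04 and 1.097 FPKM in the libraries labelled KO, against 1.43 and 1.47 FPKM in WT (-0.24, SE 0.064, limma adjusted p = 0.0145). Without KO replicate 1 or KO replicate 2, or with the bin median subtracted, the call was lost (adjusted p over 13 alternatives 0.00304 to 0.131). FUT1, which makes H antigen, was next, with 0.820 and 0.912 FPKM in the libraries labelled KO and 0.702 and 0.736 FPKM in WT. FUT2, FUT3, FUT5, FUT6, FUT7 and FUT9 lay between 0 and 0.0856 FPKM. The genes once named FUT10 and FUT11 now carry the symbols POFUT3 and POFUT4 and are not among the members. POFUT4 measured 10.4 and 11.3 FPKM in the libraries labelled KO, against 7.82 and 6.60 FPKM in WT, and rose by 0.53 (limma adjusted p = 0.00154), beside a bin median of 0.35 on chromosome 10. Over 14 alternatives its change ran from 0.18 to 0.64, and 13 kept the call.

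**Figure D4:**
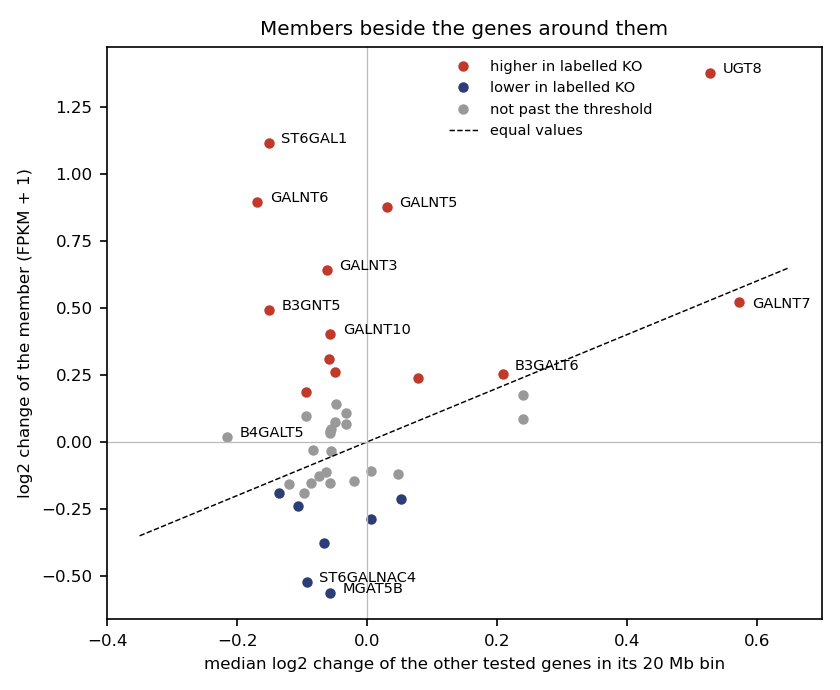
Log2 change of each of the 42 tested members (y axis) against the median log2 change of the other tested genes in its 20 Mb bin (x axis); the dashed line marks equal values and colours give the call. GALNT7 (0.52 beside 0.57) and B3GALT6 (0.25 beside 0.21) sit near the line, UGT8 (1.38 beside 0.53) lies above it, and ST6GAL1, GALNT6 and B3GNT5 rose in bins with medians of -0.15 to -0.17.

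Genome position was compared next. The bin medians of the 42 tested members ran from -0.21 to 0.57, and 6 members lay in bins at 0.2 or more in either direction. These were UGT8 and GALNT7 on chromosome 4, B3GALT6, ST3GAL3 and B4GALT2 on chromosome 1, and B4GALT5 on chromosome 20. After subtraction of bin medians, 15 of the 20 calls remained with their sign, and GALNT7 changed sign. Among the tested members, GALNT1, GALNT6, GALNT7, B3GNT5, B4GALT1 and B4GALT3 also share exonic bases with a gene on the opposite strand. So do B4GALT4, FUT8, FUT4, MGAT4B and ST3GAL6. In B4GALT3, which had no call (-0.19), 779 bases are shared with PPOX, a gene at 4.79 FPKM. On the same strand, ST6GALNAC6 shares 222 bases with AK1 and B4GALT3 shares 112 with ADAMTS4. Reads in all these places may be split.

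Other enzymes that act with the members were counted in 6 lists drawn up by function. Of 15 tested transferases and related proteins of the same chains, 5 rose and 3 fell, with a median change of 0.02. Since 49.9% of all tested genes passed, these 8 of 15 are near the background. C1GALT1, which makes core O-glycans from the GALNT product, had 6.93 and 7.27 FPKM in the libraries labelled KO and 4.46 and 4.64 FPKM in WT (0.55, limma adjusted p = 0.000242). GCNT1, which branches that core, rose by 0.63 (3.93 and 3.96 FPKM in the libraries labelled KO, against 2.26 and 2.14 FPKM in WT). LFNG, a fringe enzyme that extends fucose on Notch, rose by 0.96 (8.48 and 8.51 FPKM in the libraries labelled KO, against 3.62 and 4.14 FPKM in WT). The bin around C1GALT1 and LFNG, both on the short arm of chromosome 7, had a median of 0.18.

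Of 23 genes of nucleotide sugar synthesis, 5 rose and 6 fell (median -0.11), again near the background. MPI, which feeds mannose into the pathway, rose by 0.63, UGDH, which makes UDP-glucuronic acid, by 0.60 and FPGT, of the fucose salvage path, by 0.52. The bin medians around MPI, UGDH and FPGT were 0.25, 0.29 and 0.22. The largest falls were those of GNPNAT1 (-0.34), CMAS (-0.33) and GALT (-0.31), named after their values were seen. For the remaining lists the background is again the 49.9% of all tested genes that passed. The calls among Golgi scaffold and COG genes lay below that share, and those among sialidases and lysosomal glycosidases above it. Neither difference was tested. Of 11 Golgi sugar transporters and related proteins, 2 rose and 3 fell. The GDP-fucose transporter SLC35C1 fell to 5.54 and 5.48 FPKM in the libraries labelled KO, against 7.13 and 7.76 FPKM in WT (-0.37, limma adjusted p = 0.0017), SLC35A4 fell by 0.25, and TMEM165, needed for Golgi manganese balance, rose by 0.34. Of 8 trimming enzymes 1 rose (MAN1B1, 0.26) and 2 fell, the glucosidase MOGS (-0.37) and PRKCSH, a subunit of glucosidase II (-0.36). With no filter, TMEM165 (limma adjusted p = 0.0653) and MAN1B1 (0.0528) lost their calls. Of 16 Golgi scaffold and COG genes, 2 rose and 1 fell, namely GOLGA5 (0.27), GOLGA2 (0.24) and GORASP2 (-0.15), the last called under 4 of 14 alternatives (limma adjusted p up to 0.265). Of 13 sialidases and lysosomal glycosidases, 5 rose and 7 fell (median -0.18), with rises of 0.64 in HEXA, 0.59 in FUCA1 and 0.52 in MANBA; the bins around HEXA, FUCA1 and MANBA had medians of 0.25, 0.24 and 0.53, and MANBA lost its call when that median was subtracted (adjusted p = 0.905).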

How the data were processed

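Total RNA of cultured MDA-MB-231 cells was sequenced by a service company on an Illumina platform, as the labels' protocols state. STAR, Subread and DESeq2 are named in the submitters' processing notes, without role or version; build, annotation and strandedness are not stated there. The authors deposited FPKM values for 39259 Entrez gene IDs, with exon coordinates and lengths, per the file headers. Whole fragments were recovered for 100% of values (tolerance 0.001).

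RefSeq (GRCh38.p14) gave symbols for 37708 IDs (96.0%), and 78 of the 79 members had coordinates within 1000 bases of it. The limma 3.58.1 test (R 4.3.3, eBayes, trend and robust) used log2(FPKM + 1), which understates fold changes of low genes, and genes averaging 1 FPKM or more. The code was run on simulated data in which a small set of genes changed and no clone or culture effect was present. With 49.9% of tested genes called here, that run cannot show how the test behaves in these data. Bins of 20 Mb needed 10 tested genes, the gene itself left out.

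Members, classes and lists were chosen with earlier results of these data known. Named were, per class, up to 4 called members with the largest change, the most abundant, and any reaching 1 FPKM in 1 group alone; per pathway list, up to 3 called genes. GALNT13, GALNT2, ST6GALNAC6, FUT1, POFUT4 and members below the filter other than ST8SIA4 and B3GALT4 were named after their values were seen. Same-numbered libraries share no labelled culture, so numbers were not used as pairs. Alternatives changed the pseudocount, filter, normalization, fit or block, or left out 1 library.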

Additional observations from a re-analysis of the deposited data

How the results depend on the processing

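Of the calls among members, 20 of 20 kept their direction and call with a pseudocount of 0.1, without trend and robust fitting and with voom on fragments. With no filter 14 of the 20 did so, and with bin medians subtracted 15. A fit without 1 library takes its spread from the pair of the other group alone, so its count of calls shifts with the library left out. A filter at a mean of 5 FPKM tested 24 members and called 7 higher and 2 lower. Leaving out 1 library gave 9 to 15 members higher and 3 to 12 lower, and 1559 to 3076 genes higher and 1962 to 4001 lower over all genes. With the median of the members at 0.0454, these fits gave 0.0367 to 0.0734, no filter gave -0.0014, quantile normalization 0.071, median-of-ratios scaling 0.0876 and voom 0.1002. Some members without a call changed sign: MGAT4B was 0.013 with quantile normalization, 0.0122 with median-of-ratios scaling, 0.0131 with voom, 0.0234 with bin medians subtracted and 0.0068 without WT replicate 2. ST3GAL4 was 0.0111 with median-of-ratios scaling, 0.0293 with voom, 0.0521 with bin medians subtracted and 0.063 without WT replicate 2, and B4GALT5 was -0.0291 without WT replicate 2. Over the fits without 1 library, MGAT4B ran from -0.0715 to 0.0068, ST3GAL4 from -0.1236 to 0.063 and B4GALT5 from -0.0291 to 0.0676. GALNT7, a called member, was -0.0512 with bin medians subtracted. The causes were not tested. Same-numbered libraries deviated with a correlation of -0.225 across genes. With the replicate number as a block, 12 members were higher and 6 lower, with 2348 genes higher and 3029 lower over all genes; B3GALT9 (adjusted p = 0.0707) and ST3GAL5 (0.0757) lost their calls. A crossed replicate block, added after the data were seen, gave 15 and 9 members and 2839 and 3821 genes. WT replicate 2 was the shallowest library at 22503981 fragments, which limits members at low FPKM most.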
